A study of Mus musculus with 12 samples.

Results

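The genes described here are Il3 and Csf2, neighbours on mouse chromosome 11 that encode interleukin-3 and granulocyte-macrophage colony-stimulating factor (GM-CSF). They are 2 of the 12885 gene symbols in a table of RNA levels, and were chosen by symbol from their levels in these same libraries, so their levels and ratios are given as a description with no test. RNA was sequenced from naive CD8 T cells (CD62L high, CD44 low or negative) sorted from spleens of 6-week-old mice of the C57Bl/6 background that were wild type (WT) or homozygous for the mutation labelled Ikaros-Zn4 (Zn4). Ikaros is a zinc finger DNA-binding protein of lymphocytes, and the labels do not describe the allele further. The cells of each genotype were taken without stimulation (0 h), or were cultured for 12 h or 24 h on antibodies to CD3 and CD28 bound to the plate, with 2 libraries in each of the 6 groups. Whether the 2 libraries of a group come from different animals is not stated, so p-values measure only the spread between these libraries, which may be technical where the sex transcripts below do not tell the libraries apart.

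Interleukin-3 and GM-CSF are secreted growth factors of blood progenitors, mast cells, basophils, granulocytes and macrophages, and T cells are a main source of both. Each binds its own receptor alpha chain (the products of Il3ra and Csf2ra), which pairs with a beta chain common to both, and the receptors signal through JAK2 and STAT5. Resting T cells hold little of either mRNA. Engagement of the T cell receptor induces transcription through NFAT, AP-1, NF-kappaB and RUNX factors, and the GM-CSF mRNA is a classic example of a message made short-lived by AU-rich elements.

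Both genes lie on the minus strand in GRCm38, Csf2 at chr11:54247271-54249667 and Il3 at chr11:54265303-54267277 in GENCODE M21, 15.6 kb apart. The 250 bases before each RefSeq start site (GRCm38.p6, minus strand) are shown because they adjoin the annotated starts of the genes whose levels differ below. Capitals mark matches on either strand to a core of NFAT (GGAAA), Ikaros (TGGGAA) or RUNX (TGTGGT) sites, and on the gene's strand to a TATA box (TATAAN). The AP-1 letters TGANTCA were searched as well and are in neither window.
Il3, chr11:54267280-54267529: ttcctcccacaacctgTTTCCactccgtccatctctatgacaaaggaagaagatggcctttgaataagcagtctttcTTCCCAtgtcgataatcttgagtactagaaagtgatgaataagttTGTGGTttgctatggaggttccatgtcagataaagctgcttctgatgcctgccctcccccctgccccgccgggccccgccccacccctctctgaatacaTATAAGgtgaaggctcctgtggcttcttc
Csf2, chr11:54249900-54250149: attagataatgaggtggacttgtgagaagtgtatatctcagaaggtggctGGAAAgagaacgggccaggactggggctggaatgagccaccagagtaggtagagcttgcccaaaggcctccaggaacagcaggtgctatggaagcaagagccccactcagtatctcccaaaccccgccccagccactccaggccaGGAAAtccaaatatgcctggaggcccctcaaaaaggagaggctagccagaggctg
The Il3 window held 1 match each to the NFAT, Ikaros, RUNX and TATA letters, and the TATAAG lay 29 bases before the start site. The Csf2 window held 2 matches to the NFAT letters and none to the others. Of 32851 RefSeq windows of this length, 55.6% held GGAAA, 21.6% TGGGAA, 14.0% TGTGGT, 16.0% TATAAN and 6.75% TGANTCA, and a match describes letters, not a bound site. The RefSeq start of Csf2 lies 232 bp upstream of the GENCODE start, so the bases just before the GENCODE start are not in this window. For Il3 the starts are 2 bp apart. Letters missing from the Csf2 window may lie in the bases not shown, so the windows are not a comparison of the promoters.

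The 3′ UTRs of these mRNAs were searched for AU-rich letters. The stretch of the Csf2 3′ UTR with the most matches is shown because it is the part of the message that decay factors are known to bind. Capitals mark overlapping copies of the pentamer ATTTA, of which this stretch (bases 230 to 259 of the 3′ UTR, GENCODE M21) holds 5.
Csf2 3′ UTR: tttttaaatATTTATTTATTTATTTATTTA
The 317-base 3′ UTR of Csf2 held 9 ATTTA in all and 4 copies of TTATTTATT. Among 2447 genes of the table whose 3′ UTR was 0.5 to 2 times as long, Csf2 included, 0.0817% held at least as many ATTTA, and 2.45% held any TTATTTATT. Il3 held 1 ATTTA in the 101 bases that GENCODE gives it, but RefSeq ends the gene 218 bp further on, and those bases were not searched. The Il3 and Csf2 3′ UTRs therefore cannot be compared in these letters. Of 5 other cytokine mRNAs searched, Lta held 3 ATTTA, Ifng 6, Il2 and Lif 7 each, and Tnf 8.

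The 12 libraries held 24263905 to 33389808 reads, worked out from the steps of the RPKM values (reads per kilobase of gene and per 1e6 reads in the library), and replicates correlated at r = 0.980 to 0.995 across genes. All samples are labelled female, but 3 libraries carried Y-linked transcripts (Ddx3y, Eif2s3y, Kdm5d and Uty, summed): 38.9 RPKM in WT 12 h replicate 1, 43.5 in Zn4 12 h replicate 1 and 21.0 in Zn4 12 h replicate 2, against at most 0.0209 elsewhere. Xist, which marks an inactive X chromosome, was at 0.0023, 0.0258 and 24.3 RPKM in these 3 libraries and at 27.2 to 82.7 in the others. The WT libraries at 12 h thus differ in sex. The Zn4 libraries at 12 h differ as well, since replicate 2 held both kinds of transcript and replicate 1 almost only the Y-linked ones. The levels and ratios at 24 h use none of these libraries, although the model pools its variance over all 12 (without these 3, 1814 genes rather than 2464 were called at 24 h), and the Zn4 group at 12 h holds no other library. The 5 T cell and CD8 markers summed to 1047 to 1210 RPKM in the WT libraries, 1118 to 1159 in Zn4 cells at 0 h, 793.5 to 814.4 in Zn4 cells at 12 h and 676.7 to 825.5 at 24 h. After stimulation, the markers of other cells were low for CD4 T cells (2 of 4 markers measured, at most 2.34), gamma-delta T cells (3 of 6, at most 3.99), natural killer cells (1 of 5, at most 1.66) and myeloid cells (1 of 6, at most 0.083). At 0 h, when Il3 and Csf2 were near 0, the gamma-delta markers summed to 36.1 to 37.9 RPKM in Zn4 cells against 2.85 to 3.46 in WT, most of it Cd163l1 (33.6 and 34.6 against 0.543 and 0.402), and the natural killer marker Gzma held 5.22 and 2.62 against 0.400 and 0.0931, and their part in the 0 h differences was not tested. B cell transcripts (Cd79b and Ighm, 2 of 6) summed to 71.7 to 162.7 in stimulated Zn4 libraries and 135.7 to 249.6 in stimulated WT libraries, and the 8 mast cell and basophil markers were not analysed here. The part of other cells in the results was not tested, and in bulk RNA a change in the share of cells that make a cytokine cannot be told apart from a change in RNA per cell.

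Il3 was near absent in unstimulated cells of both genotypes and became one of the most abundant mRNAs of stimulated Zn4 cells, while stimulated WT cells stayed near 1 RPKM or below. The WT libraries held 0 and 0.130 RPKM at 0 h (0 and 2 reads), 0.131 and 0.333 at 12 h (2 and 7 reads) and 1.11 and 0.841 at 24 h (17 and 15 reads). The Zn4 libraries held 0.0607 and 0 RPKM at 0 h (1 read and none), 134.7 and 212.4 at 12 h (2383 and 3678 reads) and 283.4 and 239.7 at 24 h (4563 and 3767 reads). Every stimulated Zn4 library was above every WT library, and at 0 h the genotypes overlapped within 2 reads. By order of RPKM, Il3 was the 296th and 158th highest gene of the Zn4 libraries at 12 h and the 87th and 113th at 24 h. In the WT libraries at 24 h it was 11235th and 11612th of the 12885 genes.

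The mean Il3 level in Zn4 cells was 748 times that in WT cells at 12 h (173.5 ± 54.9 against 0.232 ± 0.143 RPKM, SD, n = 2 each). With only 9 WT reads, the 95% counting interval of this ratio was 367 to 1527, and single pairs of libraries gave 404 to 1622. At 24 h the ratio was 267.5 (261.5 ± 30.9 against 0.978 ± 0.193 RPKM, interval 192 to 396, library pairs 215 to 337). The intervals cover counting error only. The 12 h ratio depends on the few WT reads: against WT 12 h replicate 1, which carried Y-linked transcripts, it was 1326, and against replicate 2 it was 521. On the log2(RPKM + 1) scale of the model, which damps the change of a gene below 1 RPKM in a group, the difference was 7.11 ± 0.20 (SE) at 12 h and 7.05 ± 0.20 at 24 h, the highest of 12726 genes at both times. These values chose the gene and support nothing further.

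Csf2 was as low at 0 h and also separated the genotypes, but later and from a smaller difference at 12 h. The WT libraries held 0 and 0.102 RPKM at 0 h (0 and 2 reads), 0.257 and 1.27 at 12 h (5 and 34 reads) and 1.29 and 1.23 at 24 h (25 and 28 reads). The Zn4 libraries held no Csf2 read at 0 h, 3.51 and 5.77 RPKM at 12 h (79 and 127 reads) and 81.9 and 58.6 at 24 h (1678 and 1171 reads). At 12 h the lower Zn4 library was 2.76 times the higher WT library, and the WT libraries lay far apart. At 24 h the WT libraries were close together and the Zn4 libraries far above them. Csf2 moved from the 8154th and 6953rd highest gene in the Zn4 libraries at 12 h to the 610th and 1036th at 24 h.

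The mean Csf2 level in Zn4 cells was 6.06 times that in WT cells at 12 h (4.64 ± 1.59 against 0.765 ± 0.718 RPKM, SD, n = 2 each, counting interval 3.87 to 7.92). Single pairs of libraries ranged from 2.76 to 22.4, wider than that interval, so the spread between libraries and not counting set the precision. Against WT 12 h replicate 1 the ratio was 18.0 and against replicate 2 it was 3.64. At 24 h the ratio was 55.7 (70.3 ± 16.5 against 1.26 ± 0.0375 RPKM, interval 42.6 to 74.8, library pairs 45.5 to 66.3). The model gave differences of 1.71 ± 0.28 at 12 h (77th highest of 12726) and 4.96 ± 0.28 at 24 h (3rd highest). Reads of Csf2 may include those of Gm12223, a gene on the opposite strand that overlaps it (chr11:54247600-54254495). The library kit keeps strand, but whether strand was used in counting is not given in the sources used here, so the contributions cannot be told apart.

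**Figure D1:**
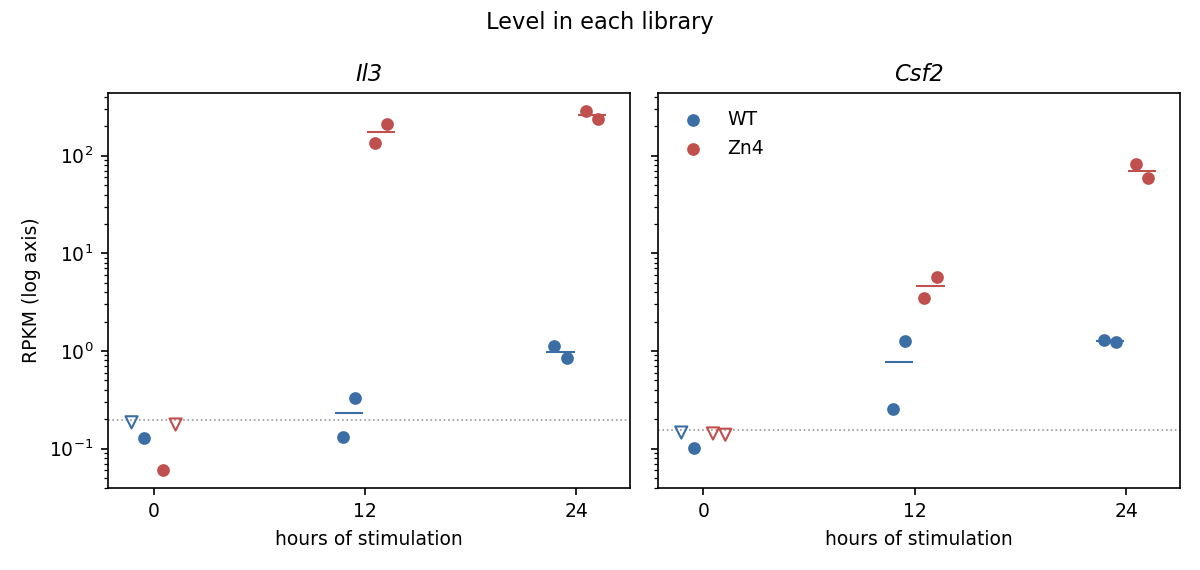
Level of Il3 (left) and Csf2 (right) in RPKM on a log axis against hours of stimulation. Each point is 1 library, bars are means of 2 libraries with reads in both, open triangles are libraries with 0 reads placed at the level of 3 reads, and the dotted line is the highest such level among libraries. Zn4 libraries at 12 h hold 134.7 and 212.4 RPKM of Il3 and only 3.51 and 5.77 of Csf2, and at 24 h both genes are high.

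The genes differed in timing within Zn4 cells. Il3 was already at 66.4% of its 24 h level at 12 h (47.5% to 88.6% over pairs of libraries), and rose 1.51-fold from 12 h to 24 h (counting interval 1.46 to 1.56, library pairs 1.13 to 2.10, model 0.62 ± 0.20 on the log2 scale). Csf2 was at 6.60% of its 24 h level at 12 h (4.29% to 9.84%), and rose 15.2-fold (13.2 to 17.6, library pairs 10.2 to 23.3, model 3.67 ± 0.28). No pair of Zn4 libraries gave a rise for Il3 as large as the smallest for Csf2. From 0 h to 12 h, Il3 in Zn4 cells went from 1 read in all to 6061 reads, and Csf2 from no read to 206, at least 65.8-fold higher when the 0 h group is set at 3 reads. By 24 h, Csf2 was at least 996-fold higher on the same floor. The lower 95% counting bounds with no read at 0 h were 52.9-fold and 811-fold.

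The ratio of Il3 to Csf2 within a library, in RPKM and thus per length, shows the same shift, since each ratio is formed inside 1 library. It was 38.4 and 36.8 in the Zn4 libraries at 12 h and 3.46 and 4.09 at 24 h, so the replicates were close and the times did not overlap. In WT cells Csf2 was the higher of the genes, with ratios of 0.509 and 0.262 at 12 h (2 and 7 Il3 reads) and 0.865 and 0.681 at 24 h. The order of the genes within a library was therefore opposite in stimulated cells of the 2 genotypes, on few reads in WT.

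In WT cells the timing could be read only roughly. Il3 rose 4.21-fold from 12 h to 24 h on 9 and 32 reads (interval 1.82 to 9.29, library pairs 2.53 to 8.51). Csf2 rose 1.65-fold (interval 0.967 to 2.31, library pairs 0.970 to 5.01), a difference not detectable at this depth, and it rests on WT 12 h replicate 1: without that library the log2 ratio was -0.01 instead of 0.72. The WT level at 12 h was 23.7% of that at 24 h for Il3 and 60.7% for Csf2, the opposite order from Zn4 cells, on 9 to 53 reads per group.

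Other cytokine genes of T cells place these time courses. Of a list of 21 cytokines, 10 were measured besides Il3 and Csf2, and Il4, Il5 and Il13, further along this chromosome, were not analysed here. At 24 h, 7 of the 10 were higher in Zn4 cells and 2 lower, where 19.4% of all 12726 genes were called (limma, Benjamini-Hochberg adjusted p under 0.05), and the median difference was 1.99 against -0.02 over all genes. At 12 h, 5 were higher and 1 lower (13.1% of all genes called), and at 0 h 1 was higher (5.72% of all genes called), or 2 without either WT 12 h library. Il2, the T cell growth factor, held 35.9 and 30.3 RPKM in Zn4 cells at 12 h and 116.2 and 88.6 at 24 h, against 1.08 and 2.20 and then 6.05 and 6.54 in WT. Its differences were 3.72 ± 0.20 (limma adjusted p = 1.32e-05) and 3.81 ± 0.20 (adjusted p = 8.79e-06), and the groups did not overlap at either time. Ifng, which encodes interferon-gamma, differed by 5.22 ± 0.20 at 12 h (limma adjusted p = 1.13e-06) and 3.67 ± 0.20 at 24 h (adjusted p = 1.01e-05). Tnfsf11 (RANKL) alone was already higher at 0 h, by 3.43 ± 0.26 (limma adjusted p = 7.16e-05), a time at which Il3 and Csf2 were near 0 in both genotypes.

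In time, 6 of the 10 cytokines rose and 2 fell from 0 h to 12 h in WT cells (70.2% of all genes called), and likewise 6 and 2 in Zn4 cells (73.0% of all genes called). From 12 h to 24 h, 5 rose and 1 fell in WT cells (24.0% of all genes called), and 5 rose and 2 fell in Zn4 cells (33.6% of all genes called). Leaving out WT 12 h replicate 2 left 3 WT rises and no fall, and leaving out WT 24 h replicate 1 or replicate 2 left 1 rise and no fall. The response from 0 h to 12 h itself differed between genotypes for 3 of the 10, Il2, Ifng and Lta (lymphotoxin alpha), all with a larger rise in Zn4 cells, where 5.12% of all genes were called. Il2 and Ifng lost that call in limma-voom on the recovered reads (adjusted p = 0.162 and 0.115), and Lta (1.94 ± 0.19, limma adjusted p = 0.00107) kept it. From 12 h to 24 h, Osm (oncostatin M) differed upwards and Ifng downwards between genotypes (0.786% of all genes called), and both calls were lost without any 1 of the libraries other than Zn4 24 h replicate 2.

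Set beside these genes, Csf2 had the lowest 12 h level relative to 24 h in Zn4 cells. Lif, a cytokine of the interleukin-6 family, was at 17.3%, Osm at 20.0%, Il2 at 32.3% and Tnfsf11 at 42.5%. Il3 sat between Il16 at 59.9% and Lta at 90.9%. Ifng was at 188.5%, that is, higher at 12 h than at 24 h. The range over library pairs of Csf2 (4.29% to 9.84%) lay below those of Lif (12.9% to 22.5%) and Osm (13.4% to 29.5%), and that of Il3 overlapped those of Tnf, Tnfsf11, Il16, Lta and Csf1. This order is a description of 2 libraries per group.

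**Figure D2:**
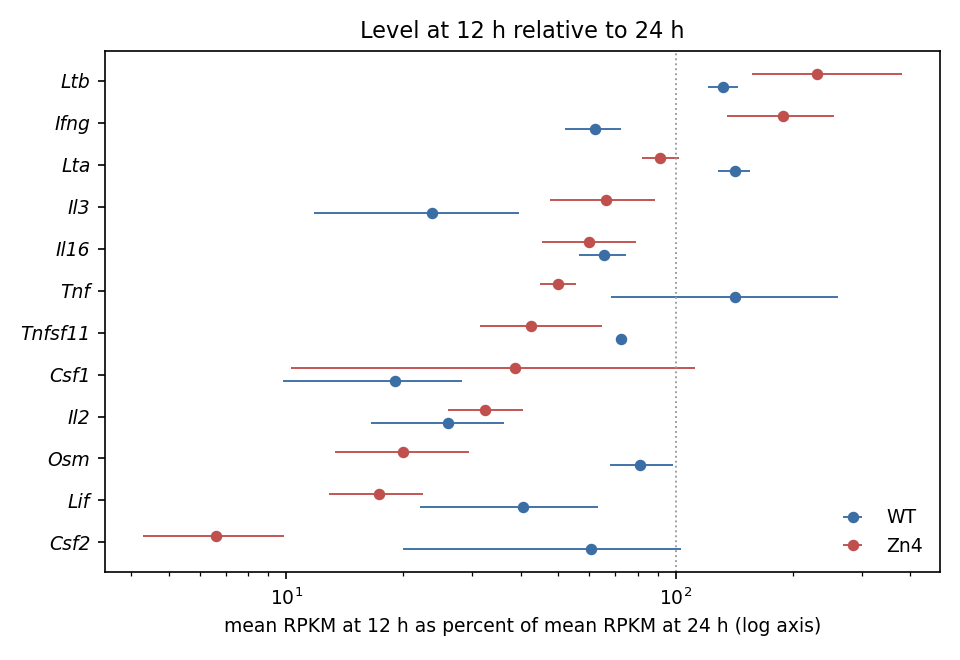
Mean RPKM at 12 h as a percentage of mean RPKM at 24 h, on a log axis, for Il3, Csf2 and the 10 other measured cytokine genes in WT and Zn4 cells. Lines span the lowest and highest value over the 4 pairs of libraries and the dotted line marks 100%. Csf2 in Zn4 cells is lowest at 6.60%, Il3 in Zn4 cells is at 66.4%, and Ifng in Zn4 cells is above 100%.

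The genes around Il3 and Csf2 were read to see whether their neighbours moved with them. Within 1 Mb of either gene, RefSeq lists 76 genes, of which 29 besides Il3 and Csf2 were measured. At 12 h, 2 were higher and 5 lower in Zn4 cells (24.1% of the 29, beside 13.1% of all genes), and at 24 h 4 were higher and 5 lower (31.0% beside 19.4%). The median difference of the 29 was -0.06 at 12 h and 0.02 at 24 h, near that of all genes. Leaving out any 1 of the 4 libraries at 12 h left 2 higher and 1 or 2 lower. At 24 h, leaving out WT replicate 1, WT replicate 2 or Zn4 replicate 1 left 3 higher and 2 lower.

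Acsl6, a long-chain acyl-CoA synthetase gene 36.5 kb from Il3 on the opposite strand, was the neighbour among the 10 genes with the level pattern most like that of Il3. It held 3.05 and 4.09 RPKM in Zn4 cells at 12 h and 2.64 and 2.43 at 24 h, against at most 0.139 in every WT library. Acsl6 reached 1 RPKM, the level needed for testing, only in stimulated Zn4 cells, and its likeness to Il3 was read from these same libraries. Its p-values are therefore no independent support. The difference was 2.07 ± 0.12 at 12 h (limma adjusted p = 1.9e-05) and 1.64 ± 0.12 at 24 h (adjusted p = 3.86e-05). Its response from 0 h to 12 h was larger in Zn4 cells by 2.06 ± 0.17 (limma adjusted p = 0.000406), a call lost in limma-voom on recovered reads (adjusted p = 0.0869). From 12 h to 24 h it went the other way from both Il3 and Csf2 in Zn4 cells: its 12 h level was 141% of that at 24 h (115.7% to 168.4% over library pairs). That change was -0.36 ± 0.12 (limma adjusted p = 0.0446), a call lost with a pseudocount of 0.1 (adjusted p = 0.229), with the replicate block (0.0541), in limma-voom (0.0773) and without any 1 library other than Zn4 12 h replicate 1 (0.0542 to 0.293).

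Pdlim4, which encodes a PDZ and LIM domain protein and lies 178.3 kb from Csf2 on the same strand, was higher in Zn4 cells at every time but had another time course. It held 24.2 and 20.6 RPKM in unstimulated Zn4 cells against 0.549 and 0.575 in WT, then 1.24 and 2.09 at 12 h and 4.36 and 2.55 at 24 h, where WT held at most 0.0585. Pdlim4 reached 1 RPKM, the level needed for testing, only in Zn4 cells, so its p-values are no independent support. The differences were 3.90 ± 0.20 at 0 h (limma adjusted p = 9.57e-06), 1.34 ± 0.20 at 12 h (adjusted p = 0.00261) and 2.09 ± 0.20 at 24 h (adjusted p = 0.000202). In Zn4 cells Pdlim4 fell from 0 h to 12 h (-3.15 ± 0.20, limma adjusted p = 5.98e-07), the interval in which Il3 appeared. Irf1, an interferon-induced transcription factor gene on the Csf2 side of the pair, was lower in Zn4 cells at 12 h (16.4 and 19.5 against 45.2 and 45.3 RPKM, -1.29 ± 0.14, limma adjusted p = 0.000383). At 24 h, Rapgef6 (-0.73 ± 0.08) and Gm2a (-0.61 ± 0.11) were lower and Tnip1 (0.91 ± 0.18) was higher. The calls given here for Pdlim4, Irf1, Rapgef6, Gm2a and Tnip1 held under every alternative run for them. So did the Acsl6 calls between genotypes at 12 h and 24 h.

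**Figure D3:**
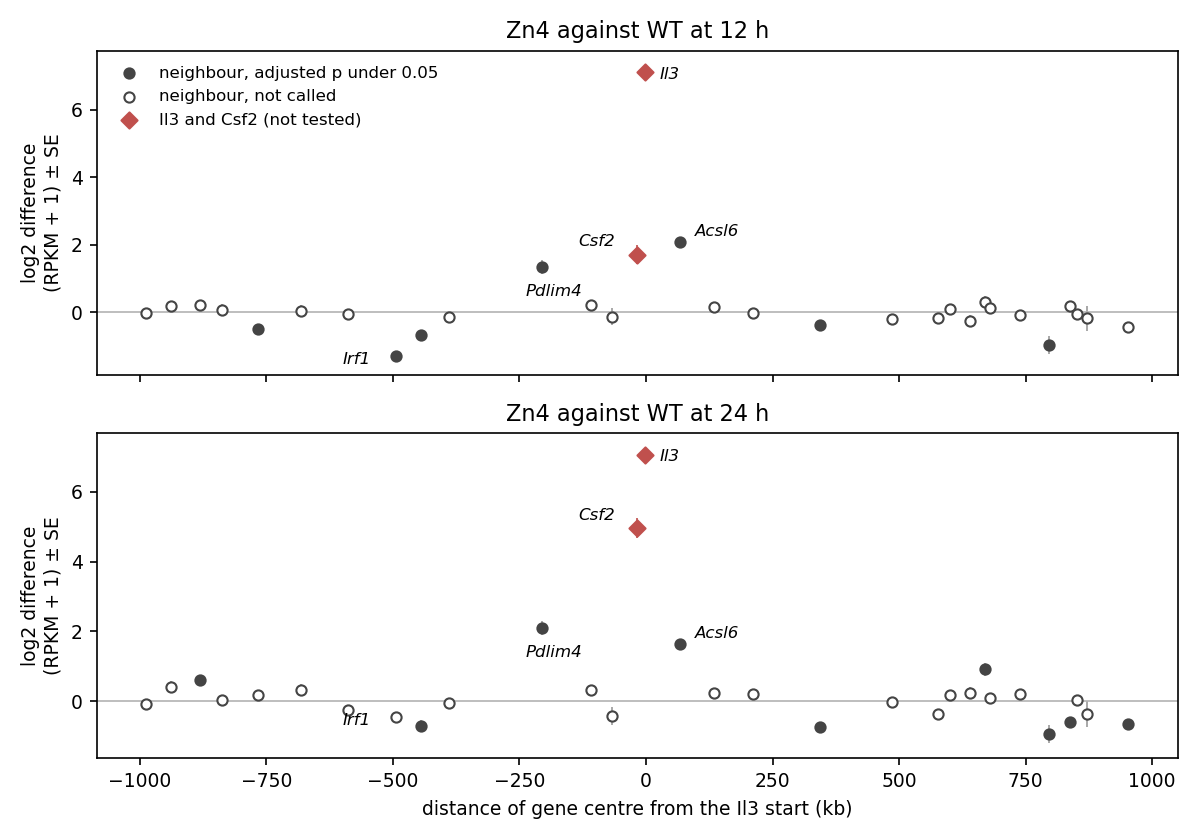
Difference between Zn4 and WT cells on the log2(RPKM + 1) scale (points, with SE) at 12 h (top) and 24 h (bottom) against the distance of each gene's centre from the Il3 start in kb. Diamonds are Il3 and Csf2, filled circles are neighbours with an adjusted p under 0.05 and open circles are the other neighbours. Acsl6 and Pdlim4 are the 2 neighbours above 1, and most of the other 27 lie near 0.

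The receptors of these cytokines were weakly expressed in the T cells. Csf2ra, the GM-CSF receptor alpha chain, held 6.02 and 6.68 RPKM in Zn4 cells at 12 h against 2.96 and 2.83 in WT, and 6.59 and 5.80 against 2.56 and 3.36 at 24 h. It was higher in Zn4 cells by 0.91 ± 0.16 at 12 h (limma adjusted p = 0.00508) and by 0.87 ± 0.16 at 24 h (adjusted p = 0.0051), and the latter call was lost without WT 24 h replicate 1 (adjusted p = 0.0568). Csf2ra was already higher in Zn4 cells at 0 h (0.73 ± 0.16, limma adjusted p = 0.0273). That call was lost without WT 0 h replicate 2 (difference 0.50), Zn4 0 h replicate 1 (0.74) or Zn4 0 h replicate 2 (0.72). The Csf2ra response from 0 h to 12 h was not called between genotypes (0.18 ± 0.22, limma adjusted p = 0.756). Il3ra, the interleukin-3 receptor alpha chain, held 1.43 to 4.63 RPKM in the stimulated libraries and was not called between genotypes, with differences of -0.35 at 12 h and 0.03 at 24 h. The common beta chain gene Csf2rb, the further beta chain gene Csf2rb2 and the related Il5ra were not analysed here.

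Downstream of such receptors, genes of the JAK2 and STAT5 pathway were more often higher than lower in Zn4 cells at 24 h. Of 17 measured of 19 listed, 8 were higher and 2 lower (19.4% of all genes called), with a median of 0.35 against -0.02 over all genes. Without Zn4 24 h replicate 1 the count was 6 higher and none lower. At 12 h, 4 were higher and 3 lower (13.1% of all genes called), or 3 and 1 without WT 12 h replicate 2 or without Zn4 12 h replicate 1. At 0 h, when Il3 and Csf2 were near 0, 3 were already higher and 2 lower (5.72% of all genes called). That count was 1 and none without WT 0 h replicate 1, 2 and none without WT 0 h replicate 2 or Zn4 0 h replicate 1, and 1 and 1 without Zn4 0 h replicate 2. Interleukin-2 and other cytokines also signal through STAT5, so these levels do not single out a receptor.

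Among the feedback inhibitors, Cish held 23.5 and 23.8 RPKM in Zn4 cells at 12 h against 5.36 and 3.90 in WT, and 49.9 and 40.2 against 7.15 and 7.07 at 24 h. It was higher by 2.14 ± 0.17 at 12 h (limma adjusted p = 9.13e-05) and 2.50 ± 0.17 at 24 h (adjusted p = 2.58e-05). It was already higher at 0 h (6.70 and 5.64 against 3.10 and 2.12 RPKM, 1.00 ± 0.17, limma adjusted p = 0.00839), a call lost without Zn4 0 h replicate 1 (adjusted p = 0.0584). Socs2, another inhibitor induced by STAT5, was below 0.3 RPKM in all libraries at 12 h and held 3.77 and 4.77 in Zn4 cells at 24 h against 0.424 and 0.392 (1.90 ± 0.12, limma adjusted p = 1.69e-05), so that it appeared late, as Csf2 did. Socs2 reached 1 RPKM, the level needed for testing, only in Zn4 cells at 24 h, so its p-value is no independent support. Pim1, a STAT5-induced kinase gene, was higher by 1.28 ± 0.21 at 12 h (limma adjusted p = 0.00406) and 2.08 ± 0.21 at 24 h (adjusted p = 0.000248). Bcl2l1, which encodes the survival protein BCL-XL, held 72.3 and 70.2 RPKM in Zn4 cells at 12 h against 23.5 and 22.9 (1.58 ± 0.10, limma adjusted p = 3.29e-05). Inpp5d, a lipid phosphatase gene that limits cytokine signalling, was lower by 0.88 on the log2 scale at 12 h (SE 0.11, limma adjusted p = 0.000951). Pim2, on the same list, was lower in Zn4 cells at 12 h (-0.79 ± 0.17, limma adjusted p = 0.0144) and not called at 24 h (-0.53 ± 0.17). Ptpn6 was lower at 12 h (-0.58 ± 0.12, limma adjusted p = 0.0116) and at 24 h (-0.57 ± 0.12, adjusted p = 0.00921). The kinase gene Jak2 was not called at 12 h or 24 h.

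**Figure D4:**
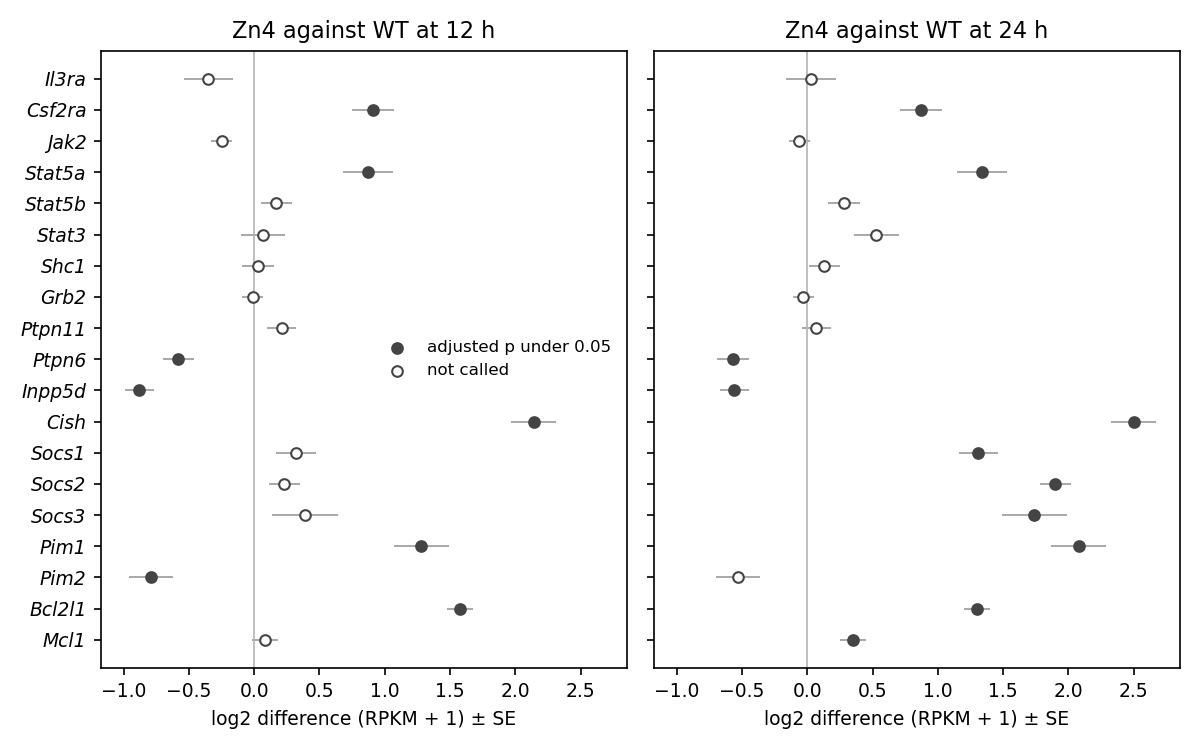
Difference between Zn4 and WT cells on the log2(RPKM + 1) scale, with SE, for the 2 measured receptor alpha chains and 17 measured signalling genes at 12 h (left) and 24 h (right). Filled circles have an adjusted p under 0.05. Cish and Pim1 are higher at both times, Ptpn6 and Inpp5d are lower at both times, and Socs2 is near 0 at 12 h and at 1.90 at 24 h.

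Transcription factors listed as candidate inducers of Il3 and Csf2 in T cells were all measured, 27 of 27 listed. At 24 h, 11 were higher in Zn4 cells and none lower (19.4% of all genes called), with a median of 0.24. It was 6 when either WT 24 h library was left out and 5 when Zn4 24 h replicate 1 was. Of the AP-1 genes, Jun (57.8 and 27.4 against 8.43 and 7.30 RPKM, 2.21 ± 0.38, limma adjusted p = 0.00371), Fosb (2.93 ± 0.42, adjusted p = 0.00138) and Junb (1.40 ± 0.21, adjusted p = 0.002) held their call under every alternative at 24 h. The Zn4 libraries at 24 h lay apart in Jun, replicate 1 being the higher, and both lay above WT. At 12 h, when Il3 was already high, 2 factors were higher and 4 lower (13.1% of all genes called). Of these, Rel, an NF-kappaB subunit gene, was higher under every alternative (0.93 ± 0.16, limma adjusted p = 0.00507). The 12 h count rose to 6 higher and 5 lower when either WT 0 h library was left out. It fell to 1 higher and 2 lower when WT 12 h replicate 1 was left out, to 2 and none for WT 12 h replicate 2, and to 1 and none for Zn4 12 h replicate 1.

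Factors that set the stability of AU-rich mRNAs were called between genotypes at about the share of all genes. Of 12 measured of 12 listed, none was higher and 3 were lower in Zn4 cells at 24 h (25.0% beside 19.4% of all genes), or 1 without WT 24 h replicate 2. At 12 h 2 were lower (16.7% beside 13.1% of all genes), or 1 without WT 12 h replicate 1 and none without any of the other 12 h libraries. Zc3h12d, a gene of the regnase family of mRNA-degrading proteins, held 36.0 and 30.8 RPKM in Zn4 cells at 24 h against 70.3 and 70.5 in WT (-1.06 ± 0.21, limma adjusted p = 0.00714). Zfp36, which encodes the ATTTA-binding protein tristetraprolin, was not called between genotypes at any time.

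The genes whose log2(RPKM + 1) over the 12 libraries was most like that of each cytokine gene are given as a description. For Il3 they included Fjx1 (Pearson r = 0.994), Hbegf (0.991), Gpr25 (0.988), Sema6a (0.987), Npnt (0.986), Mst1r (0.985), Acsl6 (0.985), Psma8 (0.984) and Timp1 (0.982). For Csf2 they were Cyr61 (0.994), Mt2 (0.983), Adm (0.981), Adora2b (0.980), Sphk1 (0.979), Prr5l (0.979), Penk (0.978), Pdzk1ip1 (0.977), Batf3 (0.977) and Fam129b (0.977). The r between Il3 and Csf2 was 0.880, which placed Csf2 124th for Il3 and Il3 195th for Csf2. At that r, no gene could have the r needed for both lists of 10, so their lack of overlap is not a further result. The points share libraries and 6 groups, so that any gene high in stimulated Zn4 cells has a high r.

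Levels of Hbegf and Cyr61 are given as examples of the lists. Hbegf, which encodes a growth factor of the EGF family, held 14.8 and 16.4 RPKM in Zn4 cells at 12 h and 24.6 and 30.6 at 24 h, against at most 1.35 in WT libraries. It was high at both times, as Il3 was. Cyr61, which encodes a matrix-associated protein, held 2.88 and 2.53 RPKM in Zn4 cells at 12 h and 24.7 and 16.3 at 24 h, against 0.183 and 0.783 and then 1.14 and 1.23 in WT. Like Csf2, it was low at 12 h and high at 24 h, with the same Zn4 library the higher at 24 h and the same WT library the higher at 12 h. Hbegf and Cyr61 were picked for likeness over these same libraries, so a shared time course and replicate order follow from the choice.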

How the data were processed

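The deposited table holds RPKM values that the authors made by aligning reads with TopHat2 2.0.12 and assigning them to genes with HTSeq 0.6.1 on mm10/GRCm38, per the submitters' processing notes; the annotation and the strand setting are not given in the sources used here. Every listed gene reached a mean of at least 1.0005 RPKM in some group. Of 7 symbols on 2 lines, the line listed earlier was kept. Whole reads were recovered from the steps of the values for 100% of genes (tolerance 0.02 reads beside rounding), and the lengths of Il3 and Csf2 implied by them equal those of GENCODE M21. Ratios of group mean RPKM carry exact 95% binomial counting intervals, and 3 reads over a group stand for a group at 0.

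Group means of log2(RPKM + 1) were fitted with limma 3.58.1 (R 4.3.3, trended prior variance) for genes with at least 1 RPKM in 2 libraries (12726 genes, 12 libraries, 6 residual degrees of freedom), with Benjamini-Hochberg adjustment over all genes in each of 9 comparisons and a threshold of 0.05. The fit was tested on simulated data. The members and lists were chosen with earlier results of these data known. Named genes are Il3 and Csf2, measured genes within 1 Mb, the 10 genes most like each over the 12 libraries, and from each list at most the 4 largest called changes in each direction; Jak2, Zfp36, Il3ra and the cytokines in the account of timing are named beside them, and 1 gene that the rule selects is not reported here. Other settings run were median-ratio scaling, quantile normalization, a pseudocount of 0.1, a filter at 5 RPKM or none, a replicate block, limma-voom on recovered reads and leaving out each library. Leaving out the 3 libraries with Y-linked transcripts together was added after seeing the data.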

Additional observations from a re-analysis of the deposited data

Results flagged for a closer look

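With 2 libraries a group, no library was tested as standing apart within its group. The following genes of the lists and the neighbourhood changed differently in Zn4 and WT cells, by the test of the difference in limma; values are the Zn4 change minus the WT change on the log2(RPKM + 1) scale. From 0 h to 12 h the difference was positive for the cytokine genes Ifng (4.85), Il2 (3.70) and Lta (1.94), the neighbour Acsl6 (2.06) and the signalling genes Bcl2l1 (1.55), Pim1 (1.37), Cish (1.14) and Stat5b (0.80). It was negative for the neighbours Pdlim4 (-2.56), Irf1 (-1.52) and Gm12216 (-0.92), the transcription factor genes Egr3 (-1.71), Egr1 (-1.68) and Nfatc2 (-1.04), the decay factor genes Zc3h12d (-1.52) and Zfp36l1 (-1.49), and the signalling genes Pim2 (-1.03) and Ptpn6 (-0.89). From 12 h to 24 h it was positive for Socs2 (1.67) and Osm (1.60) and negative for Ifng (-1.55). Bcl2l1, Lta and Irf1 from 0 h to 12 h were called under every alternative run, and each of the others lost its call under at least 1.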

How the results depend on the processing

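The ratios of Il3 and Csf2 are bound by scale more than by scaling. On the log2 scale the Il3 ratio of Zn4 to WT was 9.55 at 12 h and 8.06 at 24 h from group means but 7.11 and 7.05 in limma with a pseudocount of 1, that of WT 24 h to 12 h 2.07 but 0.68, and the Csf2 ratio at 24 h 5.80 but 4.96, since the pseudocount exceeds the WT levels. The WT 24 h to 12 h ratio of Csf2 ran from -0.01 to 2.29 with 1 library left out. Pdlim4 had a value of 0.00 for the difference between genotypes from 0 h to 12 h in limma-voom; the cause was not tested.

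Counts of called genes moved with fewer libraries: Zn4 against WT gave 396 to 806 at 0 h (728 with all; fewest without either Zn4 0 h library), 737 to 1837 at 12 h (1671; lower without any 12 h library) and 1045 to 2771 at 24 h (2464; lower without either WT 24 h library or Zn4 24 h replicate 1). From 12 h to 24 h they ran from 1285 to 3391 in WT (3052; lower without WT 12 h replicate 1 or either WT 24 h library) and from 2413 to 4658 in Zn4 (4273; lowest without Zn4 12 h replicate 1). The difference between genotypes from 0 h to 12 h gave 232 to 784 (651; lower without WT 12 h replicate 2, either WT 24 h library, either Zn4 0 h library or Zn4 12 h replicate 1), and that from 12 h to 24 h gave 1 to 366 (100; highest without Zn4 24 h replicate 2, under 50 without any other library). The latter was also 0 at a pseudocount of 0.1 (limma, 1407 at an unadjusted p under 0.05), 50 with quantile normalization, 49 with the replicate block and 43 in limma-voom. The libraries named above as lowering a count are those whose loss gave the lowest counts. Leaving out other libraries lowered some of these counts as well. Without the 3 libraries with Y-linked transcripts, 456 genes were called between genotypes at 0 h and 1195 in WT from 12 h to 24 h, and the 24 h genotype count was 1814. Same-numbered libraries of WT and Zn4 deviated together at 0 h (r = 0.610), less at 12 h (0.192) and not at 24 h (0.043), so the number was not taken as a pairing; the replicate block ended 5 of 102 calls of named genes. Of these 102, 44 were called under every alternative. The ratios of Zn4 to WT cells rest on 9 to 53 WT reads per group after stimulation and on 2 libraries a group.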
